A study of Oryza sativa with 6 samples.

Results

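The genes described here are those of the first committed steps of carotenoid synthesis in rice, the phytoene synthases *PSY1*, *PSY2* and *PSY3* and the phytoene desaturase *PDS*. They were chosen by name, as the genes whose symbol or synonym in the rice gene table is PSY1, PSY2, PSY3, PDS or ZDS. The table gave 4 genes for these 5 names, out of 17905 genes with a probe set of their own on the array, and *ZDS* was not found under that name and is not analysed here. The measurements are probe set signals from 6 Affymetrix rice arrays of leaf RNA, 3 from wild-type (WT) plants of rice variety PB1 and 3 from MADS29OX plants of the same variety, and the question is how the leaf transcriptome differs when *OsMADS29* is expressed where it normally is not. *OsMADS29* encodes a MADS-box transcription factor of the B-sister class, whose transcripts are otherwise found mainly in seeds. MADS29OX plants carry an *OsMADS29* cDNA behind a ubiquitin promoter, which is active in most tissues, and both groups were sampled at leaves 3 and 4, counting from the flag leaf. Neither the age of the plants nor the number of independent MADS29OX lines behind the 3 arrays is stated in these sources. By the study's account these plants were severely stunted, flowered early and had small, thin leaves, so that leaves of like position came from plants of unlike size.

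Carotenoids are pigments made in plastids, where they take part in light harvesting, protect the photosystems from excess light and serve as precursors of the hormones abscisic acid and strigolactone. Phytoene synthase joins molecules of geranylgeranyl diphosphate, a product of the plastid methylerythritol phosphate (MEP) pathway, into phytoene, and it is widely regarded as the step that limits the flux. Phytoene desaturase and zeta-carotene desaturase (the product of *ZDS*) then add the double bonds that give the pigments their colour. Rice has 3 phytoene synthase genes. *PSY1* and *PSY2* are known for supplying carotenoids to green tissue, and *PSY3* for its response to drought, salt and abscisic acid, particularly in roots.

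The labels call the samples of a group replicates but do not say which plants or lines they came from, so p-values here measure the spread between these arrays. *OsMADS29* (LOC4328443) had a mean signal of 6.57 in WT and 2465 in MADS29OX, an increase of at least 147-fold (limma, adjusted p = 0.000139). A floor of 16 was set, to which lower signals were raised before log2 was taken, and a gene on the floor on an array has no measured level there. The log2 values of WT arrays correlated with each other at 0.992 to 0.997 across probe sets and those of MADS29OX arrays at 0.936 to 0.969. The standard deviation (SD) of log2 values had a median of 0.0817 in WT and 0.253 in MADS29OX over the 9302 probe sets whose mean exceeded 32. Of the leaf photosynthesis markers 4 of 5 were above the floor, with summed signals of 20787 to 20979 in WT and 21785 to 28534 in MADS29OX. None of 4 root markers and 1 of 5 meristem markers was above it, and 2 of 5 seed storage markers were, with sums of 245 to 253 in WT and 196 to 230 in MADS29OX.

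Transcripts of *PSY2* and *PSY3* were lower in MADS29OX leaves than in WT leaves, whereas those of *PSY1* and *PDS* did not pass the test. *PSY2* fell 3.82-fold, and *PSY3* fell 3.26-fold with its weakest signals held at the floor. A gene was called when limma gave an adjusted p of at most 0.05 (Benjamini-Hochberg, over all 14238 probe sets tested) and the change was at least 2-fold. By this rule 2 of the 4 genes were called lower and 0 higher, where 5.03% of the 10046 genes tested were called lower and 5.05% higher. Both called genes also had all 3 MADS29OX arrays below all 3 WT arrays, an arrangement found in 26.5% of all genes tested, and 26.5% of the genes passed the adjusted p at any fold. The median log2 fold change of the 4 genes was -0.90, against -0.01 for all genes tested. In whole leaves, fewer cells of a type and less RNA per cell cannot be told apart.

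**Figure D1:**
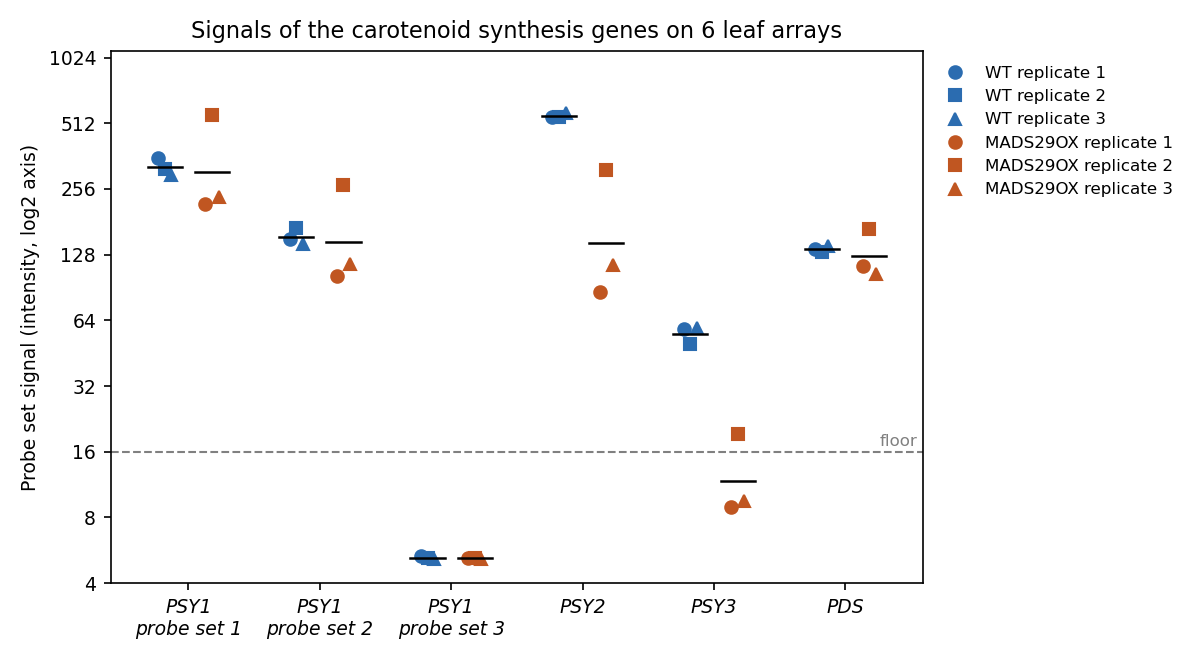
Signal of each probe set of *PSY1*, *PSY2*, *PSY3* and *PDS* on each of the 6 arrays, on a log2 axis, with WT in blue and MADS29OX in orange, a marker shape for each replicate number, black lines at the mean of the log2 signals of a group and a dashed line at the floor of 16. The WT and MADS29OX arrays overlap for *PSY1* and *PDS*, while all 3 MADS29OX arrays lie below all WT arrays for *PSY2* and *PSY3*.

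*PSY2* (LOC4352846), represented by a single probe set, gave 545, 546 and 573 as its WT signals. On the MADS29OX arrays the signals were 86.1, 311 and 114. The WT arrays lay close together, and the MADS29OX arrays were all lower, with replicate 2 well above the other two. The mean was 555 ± 15.6 (SD, n = 3) in WT and 170.5 ± 123 (SD, n = 3) in MADS29OX, or 30.7% of the WT mean. The log2 fold change was -1.93 (standard error 0.47, 95% confidence interval -3.09 to -0.78, limma adjusted p = 0.0309), which as a fold is a decrease of 3.82 with an interval from 1.72 to 8.49. This call was lost in most of the 6 fits that left out 1 array. Without WT replicate 1, 2 or 3 the log2 fold change was -1.95, -1.94 and -1.91. The standard error rose from 0.47 to 0.58, with limma adjusted p-values from 0.0996 to 0.106. Fewer of all genes tested were called in these fits as well. The call of *PSY2* was also lost without MADS29OX replicate 1 (adjusted p = 0.0528) or 3 (adjusted p = 0.0874). Its log2 fold change stayed between -2.48 and -1.56 in all 6 fits. Without MADS29OX replicate 2, the array nearest to WT, the log2 fold change of *PSY2* was -2.48 (standard error 0.14, adjusted p = 0.000455).

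*PSY3* (LOC4347813) had WT signals of 58.4, 49.8 and 58.9. In MADS29OX its signals were 8.90, 19.3 and 9.47, so that only replicate 2 was above the floor. The groups did not overlap, and the mean of the deposited signals was 55.7 ± 5.14 (SD, n = 3) in WT and 12.6 ± 5.86 (SD, n = 3) in MADS29OX, or 22.6% of the WT mean. With signals raised to the floor, the log2 fold change was -1.70 with a standard error of 0.12 (limma, adjusted p = 0.000563). Since 2 of the 3 MADS29OX arrays were at the floor, the size of this value and its standard error are set in part by the floor. Without any floor it was -2.24 (standard error 0.30, adjusted p = 0.0025), and with a floor of 32 it was -0.80 (adjusted p = 0.00236), which is under 2-fold. The call of *PSY3* was kept in all 6 fits that left out an array.

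*PSY1* (LOC4342137) had 3 probe sets. The brightest, whose suffix (_s_at) marks probes that match several transcripts, gave signals of 354, 317 and 295 in WT and of 218, 558 and 235 in MADS29OX. MADS29OX replicates 1 and 3 were below all WT arrays and replicate 2 was above them all, so the groups overlapped. The mean was 322 ± 29.7 (SD, n = 3) in WT and 337 ± 192 (SD, n = 3) in MADS29OX, and the log2 fold change was -0.07 (standard error 0.37, 95% confidence interval -0.98 to 0.84, limma adjusted p = 0.905). This interval, for which the fit takes the same spread in both groups, reaches close to a 2-fold change in either direction. The second probe set of *PSY1* showed the same arrangement, with 151, 169 and 143 in WT, 102, 266 and 115 in MADS29OX, and a change of -0.07 on the log2 scale (adjusted p = 0.901). The third was below the floor on every array and was not tested. Without MADS29OX replicate 2 the log2 fold change of *PSY1* was -0.51 (adjusted p = 0.0192), of the same sign and under the 2-fold limit. Its sign turned without MADS29OX replicate 1 (0.17) or 3 (0.12).

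*PDS* (LOC4331854), with a single probe set, had signals of 136, 131 and 140 in WT and of 114, 169 and 105 in MADS29OX. Here too replicates 1 and 3 of MADS29OX were below the WT arrays and replicate 2 was above them. The mean was 136 ± 4.25 (SD, n = 3) in WT and 129 ± 34.6 (SD, n = 3) in MADS29OX. The log2 fold change was -0.10 (standard error 0.19, 95% confidence interval -0.57 to 0.36, limma adjusted p = 0.718). A change of 2-fold lies outside this interval, but the fit takes the same spread for both groups. The SD of the log2 values of *PDS* was 0.0454 in WT and 0.368 in MADS29OX. The interval may therefore be too narrow, and a 2-fold change is not excluded. Without MADS29OX replicate 2 the log2 fold change of *PDS* was -0.31 (adjusted p = 0.0340), and without MADS29OX replicate 3 it was 0.03. An exact permutation test (two-sided) of the log2 values gave p = 0.1 for *PSY2* and *PSY3*, the smallest value that 3 arrays against 3 allow, p = 0.7 for *PDS* and p = 1.0 for *PSY1*.

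Replicate 2 was the highest of the MADS29OX arrays in all 4 genes. Relative to the WT mean on the log2 scale, replicates 1, 2 and 3 of MADS29OX stood at -0.56, 0.80 and -0.45 for *PSY1*, at -2.69, -0.83 and -2.28 for *PSY2* and at -0.25, 0.32 and -0.37 for *PDS*. For *PSY3*, with the floor, they stood at -1.80, -1.52 and -1.80. Among all genes tested, it was the highest in 33.4%. Replicate 2 also had the highest summed signal of the leaf photosynthesis markers in MADS29OX, 28534, and the lowest sum of 5 markers of senescence and chlorophyll breakdown, 455 against 706 to 729 in WT. The highest MADS29OX sum of the senescence markers, 759, was above the WT range. Among them *RCCR1* had 132 on replicate 2, and 308 and 307 on replicates 1 and 3. The photosynthesis and senescence sums both hold genes that went different ways. Among the photosynthesis markers *CAB2R*, a light-harvesting protein gene, was called higher in MADS29OX (1.46 on the log2 scale) and *PSAG*, a photosystem I subunit gene, lower (-1.05), and among the senescence markers the stay-green gene *SGR* was called lower (-2.28, adjusted p = 0.0147) while *NOL*, a chlorophyll b reductase gene, had its highest signal, 103.5, on replicate 2. The part of these differences between arrays in the values of the 4 genes was not tested.

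The genes were also compared with each other within each array. Taken this way and set against its WT mean, the log2 value of *PSY1* minus that of *PSY2* was 0.17, 0.00 and -0.17 on the WT arrays and 2.13, 1.63 and 1.83 on the MADS29OX arrays. The SD of this difference among MADS29OX arrays was 0.249, against 0.754 for *PSY1* and 0.973 for *PSY2* alone. Thus *PSY2* had dropped relative to *PSY1* on each of the 3 MADS29OX arrays, by 1.86 on average on the log2 scale. The corresponding difference between *PSY2* and *PDS* was -1.83 on average, with groups that did not overlap, and *PSY1* minus *PDS* was 0.03, with overlapping groups. Their SDs among MADS29OX arrays were 0.645 and 0.406, against 0.368 for *PDS* alone, so the spread did not shrink in every pair. These pairs were compared after the values of the genes had been seen, so they are given without a test. Pairs with *PSY3* are not given, since it was at the floor on 2 of the 3 MADS29OX arrays and a difference from it would be set by the floor.

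**Figure D2:**
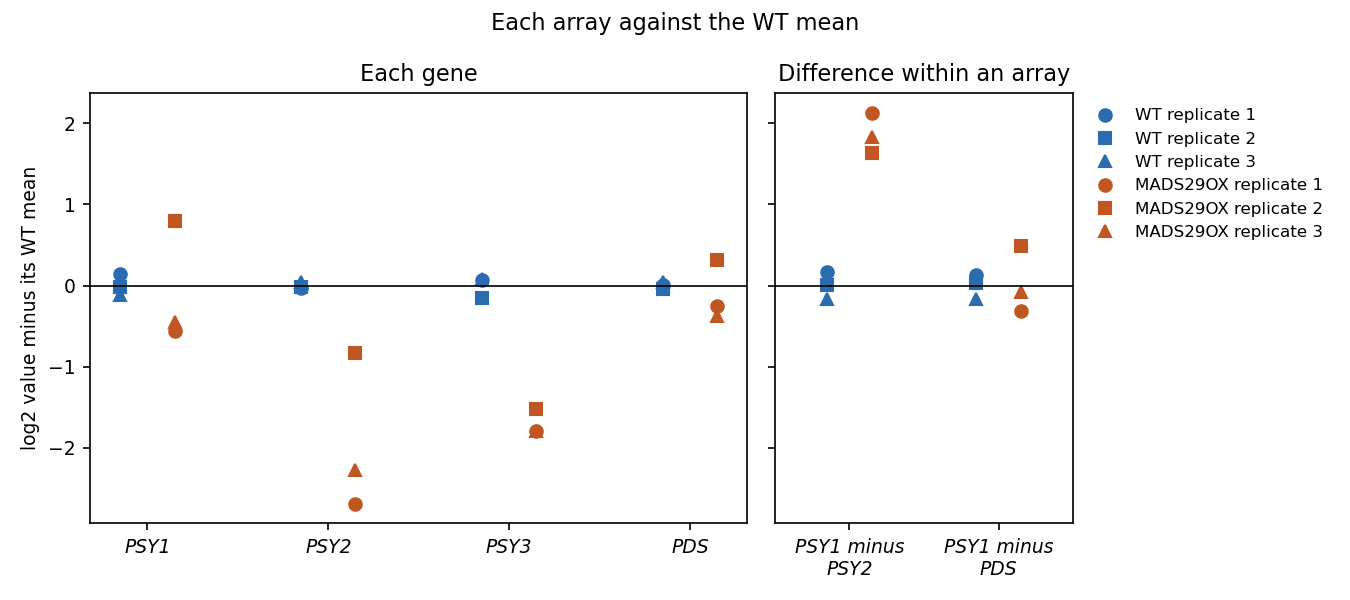
Left, log2 value of each gene on each array minus the mean of the 3 WT arrays, with signals under the floor raised to it; right, the difference between 2 genes within an array, also set against its WT mean. MADS29OX replicate 2 (orange squares) is the highest MADS29OX array for all 4 genes, while *PSY1* minus *PSY2* lies between 1.63 and 2.13 on the MADS29OX arrays and between -0.17 and 0.17 on the WT arrays.

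The steps before and after were read from a list of other genes. Of 15 further genes of plastid isoprenoid, carotenoid and abscisic acid metabolism named in the gene table, 10 had a probe set of their own and 7 were above the floor on at least 1 array. Of these 7 genes, 1 was called higher and 0 lower, with a median log2 fold change of 0.32. This median includes *ABA8OX1*, a gene of abscisic acid breakdown that exceeded the floor on MADS29OX replicate 2 only. With 5.05% of all genes tested called higher and 5.03% lower, so few genes give counts that cannot be set apart from the background. In the MEP pathway, which supplies the precursors, 0 of 4 tested genes were called. *ISPH*, the last enzyme of that pathway, had signals of 2641, 2639 and 2810 in WT and of 2174, 2229 and 2172 in MADS29OX. All MADS29OX arrays were lower, and the change of -0.30 on the log2 scale, with a standard error of 0.07, passed the adjusted p (0.0302) but was well under 2-fold. In the fits that left out an array, the limma adjusted p of *ISPH* ranged from 0.0274 to 0.116. The enzyme acting before it, *ISPG*, stood at -0.43 on the log2 scale (adjusted p = 0.0779). *DXR*, the enzyme that commits precursors to the pathway, had -0.33 (adjusted p = 0.386), and the cyclodiphosphate synthase *MCS* had 0.32 (adjusted p = 0.238).

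The called gene was *CHLP*, geranylgeranyl reductase, which turns the same geranylgeranyl diphosphate into the phytyl chain of chlorophyll and tocopherol. Its signals were 581, 577 and 486 in WT and 1021, 1724 and 900.3 in MADS29OX. Every MADS29OX array was above every WT array, replicate 2 again being the highest. The log2 fold change of *CHLP* was 1.09 (standard error 0.26, 95% confidence interval 0.46 to 1.72, limma adjusted p = 0.0277). The call of *CHLP* was also lost without any 1 of the WT arrays, with a highest adjusted p of 0.105 over the fits that left out an array, and without MADS29OX replicate 2, where the change of 0.81 (adjusted p = 0.00638) was under 2-fold.

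Downstream of the desaturases, *ZEP*, the zeaxanthin epoxidase of the xanthophyll cycle, stood at 0.53 on the log2 scale (adjusted p = 0.139). *ABA8OX1*, an abscisic acid hydroxylase that breaks the hormone down, was below the floor on all WT arrays and on MADS29OX replicates 1 and 3, at 8.18 and 12.1, and was measured only on replicate 2, at 45.9. It did not pass the test (adjusted p = 0.431). Replicate 2 was the highest of the MADS29OX arrays in 7 of these 7 genes, as in the 4 carotenoid synthesis genes, against 33.4% of all genes tested. For *ABA8OX1* this was fixed in advance, since it was tested only because replicate 2 exceeded the floor. The standing of replicate 2 was not particular to this pathway. It was also the highest MADS29OX array in 3 of 4 tested leaf photosynthesis markers, though in only 1 of 5 senescence markers. *ISPE* of the MEP pathway, the carotenoid cleavage enzyme *CCD7* and a second hydroxylase, *ABA8OX2*, were below the floor on every array. *CMS*, *ZEP1*, *D10*, *NCED3* and *ABA8OX3* had no probe set of their own in the table used.

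**Figure D3:**
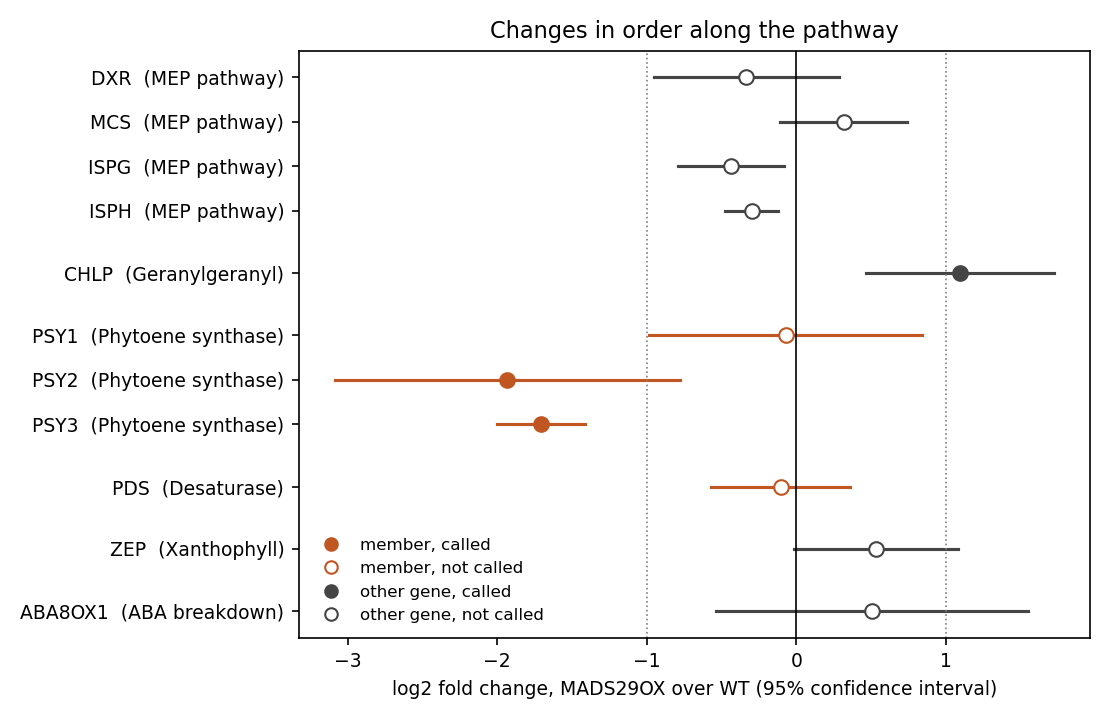
Log2 fold change, MADS29OX over WT, with the 95% confidence interval from limma, for the 4 carotenoid synthesis genes (orange) and the 7 other tested genes of the pathway (grey), ordered from precursor supply at the top to abscisic acid breakdown at the bottom; filled points were called and dotted lines mark 2-fold. *PSY2* at -1.93 and *PSY3* at -1.70 lie beyond 2-fold on the lower side and *CHLP* at 1.09 on the higher side.

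The array-to-array patterns of *PSY1*, *PSY2* and *PDS* were set against those of 1166 other named genes with a mean of at least 32, by the Pearson correlation of log2 values over the 6 arrays, which share the 2 groups and the standing of MADS29OX replicate 2. For *PSY1* the most similar were *PRXIIE-2*, a peroxiredoxin (r = 0.993), *OsNtrC*, a thioredoxin reductase (r = 0.988), and *GDCSH*, the H protein of glycine decarboxylase (r = 0.986). For *PSY2* they were *DI19-2*, a zinc finger protein of the drought-induced family (r = 0.998), *CIPK5*, a kinase that works with calcineurin B-like calcium sensors (r = 0.995), and *KIN14L*, a kinesin (r = 0.992). Their log2 fold changes differed in size, at -0.57 for *DI19-2* (adjusted p = 0.0338), -1.77 for *CIPK5* (adjusted p = 0.0324) and -0.64 for *KIN14L* (adjusted p = 0.0472), against -1.93 for *PSY2*. For *PDS* they were the GRAS protein gene *CIGR1* (r = 0.980), *OsC3H12*, a zinc finger gene (r = 0.979), and the cellulose synthase *CESA3* (r = 0.978). Correlations above 0.9 were found with 27, 124 and 27 genes for *PSY1*, *PSY2* and *PDS*. *PSY3* was left out of this comparison because it was at the floor on 2 arrays.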

How the data were processed

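Leaf total RNA of 3 WT and 3 MADS29OX samples was hybridized to Affymetrix rice arrays, 1 per sample. The values the authors deposited are linear probe set intensities. How the background was corrected and the values normalized and summarized is not given in the sources used here. Array medians lay between 5.95 and 6.00, so no scaling was added, and all arrays were kept.

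Of 57381 probe sets, 123 controls were left out. A floor of 16 was applied to the intensities before the log2 transformation, and it shrinks the change of weak genes. With limma 3.58.1 in R 4.3.3 (lmFit, eBayes), a model of group alone was fitted to the 14238 probe sets that exceeded the floor on any array, with Benjamini-Hochberg adjustment over them. Calls were made at an adjusted p up to 0.05 and a change of 2-fold or more. The fit was checked on simulated data before use, in 10 runs with 200 changed probe sets each. The noise was drawn independently for each probe set and array, so deviations that many genes share on an array were not simulated. Calls recovered 37.9% of 2-fold changes, which lie on the fold limit, 89.4% of 4-fold and 96.7% of 8-fold changes. A gene that was not called may therefore still differ by about 2-fold. With arrays, their number limits the precision.

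The probe-to-gene table gave 22436 probe sets with 1 gene, 95 with several and none for the rest, which are unnamed here. Each gene is represented by its brightest probe set, judged by the mean of all 6 arrays. Named are all probe sets of the members, each tested gene of the pathway list, *OsMADS29* and the 3 genes most correlated with each member above the floor on all arrays. No coordinates or sequences are given, since no genome build or sequence table was used here, and a planned count of promoter motifs was not run. Members, lists and tests were chosen with earlier results of these data known. The genes caught through shared synonyms were dropped from the pathway list after their intensities had been seen but before fold changes were computed. The tocopherol genes and the further strigolactone genes in the closing section were added after intensities of the members had been seen.

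Alternatives were log2 of the value plus 16, no floor, a floor or minimum mean of 32, no filter, quantile normalization, median centring, array weights, leaving out _x_at and _s_at probe sets, averaging the probe sets of each gene, a replicate block, no fold limit, and leaving out each array.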

Additional observations from a re-analysis of the deposited data

How the results depend on the processing

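Each gene was refitted under 18 other settings. *PSY2* stayed lower in all of them and was called in 11. It was not called when 16 was added to each value in place of the floor (-1.81, adjusted p = 0.211), without the filter on low signals (-1.93, adjusted p = 0.379) or in 5 of the 6 fits without 1 array, which ranged from -2.48 to -1.56. *PSY3* was called in 17 and lay under 2-fold with a floor of 32 (-0.80). *PSY1* and *PDS* were called in none, and in fits without 1 array they ranged from -0.51 to 0.17 for *PSY1*, positive without MADS29OX replicate 1 (0.17) or 3 (0.12), and from -0.31 to 0.031 for *PDS*, positive without MADS29OX replicate 3 (0.031). The count of carotenoid synthesis genes called was 1 instead of 2 when 16 was added, with the floor of 32 and without the filter, and 1 to 2 without 1 array. The count for the pathway list was 0 instead of 1 when 16 was added, without the filter and with a weight for each array, 2 with no fold limit, and 0 to 1 without 1 array. Same-numbered WT and MADS29OX arrays did not deviate together (r = 0.03, -0.04 and -0.13), so the replicate numbers were not taken as pairs. With a replicate block *PSY2* was at -1.93 (adjusted p = 0.0468), and 465 genes were called higher and 481 lower, against 507 and 505. Counts over all genes also fell to 191 and 240 when 16 was added and to 145 and 207 without the filter. All-gene counts differed by under 1.5 times in the other settings. The causes were not tested.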

Other observations

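Tocopherols are built on the phytyl chain that *CHLP* supplies, and strigolactones derive from carotenoids, so genes of both were read as values beside those of carotenoid synthesis. *VTE2-1*, the homogentisate phytyltransferase that joins the chain to the tocopherol head group, had signals of 97.2, 95.2 and 109 in WT and of 163, 253 and 178 in MADS29OX. All MADS29OX arrays were higher, and the log2 fold change was 0.96 (standard error 0.18, limma adjusted p = 0.0140), just under the 2-fold limit. These values are from the brightest of its 6 probe sets, and the others are not given. Over 18 other settings *VTE2-1* was called in 3, with limma adjusted p-values from 0.00408 to 0.201. *VTE4*, a tocopherol methyltransferase, had 0.75 (adjusted p = 0.0617). *VTE1*, tocopherol cyclase, had -0.39 (adjusted p = 0.0126), again under 2-fold, with signals from 34.8 to 37.1 in WT and from 27.5 to 27.9 in MADS29OX. *HGGT*, the tocotrienol enzyme, was below the floor on every array.

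*D14*, the strigolactone receptor, had signals of 795, 808 and 579.9 in WT and of 2004, 1923 and 2132 in MADS29OX. The groups did not overlap, and the log2 fold change was 1.49 (standard error 0.15, adjusted p = 0.00177). It was called in 17 of 18 other settings, with log2 fold changes from 1.33 to 1.57, and missed the threshold in 1 of them (adjusted p = 0.0503). Replicate 2 was the highest MADS29OX array in all 3 tested tocopherol genes, as in the tested genes of the carotenoid pathway, but not in *D14*. The strigolactone synthesis gene *CCD8A* and the signalling gene *D3* were below the floor on every array.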
